A study of Mus musculus with 26 samples.

Results

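The regions described here are the 40-kb bins of the mouse genome that lie wholly inside a very long gene, that is, a protein-coding gene of at least 500 kb in the GENCODE vM21 annotation of mm10. Of the 51976 bins with replication states, 3791 met this rule, which is 7.29% of the table. They lie in 188 genes with a median length of 734 kb and a median of 17 bins per gene. Another 42 genes of this length are on chromosomes without bins in the table and were not analysed here.

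The states and the RNA were measured by scRR-seq in blastomeres of 8-cell embryos made by in vitro fertilization with C57BL/6 mice. In this method, magnetic beads keep the chromatin of a lysed cell for whole-genome amplification while the released RNA is made into a total RNA library. A bin is called replicated or unreplicated from its copy number in that single cell. Embryo 2 gave 6 cells in S phase (cells 2, 3, 5, 6, 7 and 8), the subject of the values below, and embryo 1 gave 3 cells (cells 1, 6 and 7) that the study classed as G1 or G2/M. The labels name no genetic change or treatment, and each group of cells comes from 1 embryo. Per the study's supplementary tables, cells 2 and 3 were processed with the larger-volume version of the protocol (scRR3) and cells 5, 6, 7 and 8 with the smaller-volume version (scRR1), whose embryo RNA the study describes as biased to transcript 3′ ends with fewer transcripts detected. SDs describe the spread between cells of 1 embryo, and no test was made. RNA of the 6 early embryo markers checked, among them Pou5f1 and Obox6, was above 1 TPM in all 6 cells of embryo 2, with Pou5f1 between 117 and 231 TPM. Of the 6 cumulus and granulosa cell markers, 5 were listed at 0 in all 6 cells and Ptx3 was seen in 1 cell.

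Genomes replicate in a temporal order, in which domains rich in genes and in G and C bases tend to be copied early in S phase and gene-poor, AT-rich domains late. Very long genes are a special case, since a single transcription unit can fill a whole replication domain. Many of them encode adhesion molecules, receptors and ion channels of the nervous system, and several overlap common fragile sites, places that tend to break when replication is slowed. The bins in such genes allow replication to be read inside a gene, away from its ends.

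Sequence is shown for 4 long genes that lie apart in GC content, some replicated throughout and some not at all. The middle 200 bases are shown of 1 bin from each gene, the bin whose GC content is nearest to the mean of the gene. Kalrn (a guanine nucleotide exchange factor) and Zfhx3 (a homeobox transcription factor) were replicated in every bin of every S-phase cell. Erbb4 (a receptor tyrosine kinase) and Cadm2 (a synaptic cell adhesion molecule) were replicated in no bin of any of these cells. Capitals mark G and C, the strand is the plus strand, and the build is GRCm38.p6, the mm10 assembly.
Kalrn bin, chr16:34179901-34180100: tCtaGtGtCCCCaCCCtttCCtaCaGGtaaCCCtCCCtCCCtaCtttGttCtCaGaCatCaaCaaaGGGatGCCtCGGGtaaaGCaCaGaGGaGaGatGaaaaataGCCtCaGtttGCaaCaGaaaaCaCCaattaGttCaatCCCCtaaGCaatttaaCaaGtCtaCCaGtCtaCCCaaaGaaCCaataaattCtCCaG
Zfhx3 bin, chr8:108379901-108380100: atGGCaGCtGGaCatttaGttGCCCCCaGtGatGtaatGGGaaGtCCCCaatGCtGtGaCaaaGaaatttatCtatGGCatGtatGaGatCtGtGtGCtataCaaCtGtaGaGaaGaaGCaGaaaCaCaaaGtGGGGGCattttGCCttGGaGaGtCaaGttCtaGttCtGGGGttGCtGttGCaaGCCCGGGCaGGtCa
Erbb4 bin, chr1:68059901-68060100: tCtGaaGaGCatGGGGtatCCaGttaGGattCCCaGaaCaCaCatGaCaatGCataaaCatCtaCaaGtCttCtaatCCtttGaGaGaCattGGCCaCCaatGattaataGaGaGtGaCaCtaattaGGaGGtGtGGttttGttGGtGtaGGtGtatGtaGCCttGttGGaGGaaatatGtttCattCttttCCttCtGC
Cadm2 bin, chr16:67139901-67140100: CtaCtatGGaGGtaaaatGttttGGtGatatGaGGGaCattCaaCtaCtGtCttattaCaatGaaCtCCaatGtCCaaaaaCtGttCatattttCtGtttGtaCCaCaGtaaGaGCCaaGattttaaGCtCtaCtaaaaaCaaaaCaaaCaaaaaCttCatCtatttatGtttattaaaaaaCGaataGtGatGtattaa
The whole bins held 45.2% G and C in Kalrn, 45.1% in Zfhx3, 35.9% in Erbb4 and 35.4% in Cadm2. A stretch this short can depart from its bin, as in Erbb4, where the printed bases held 40.5%. Erbb4 and Cadm2 had the lowest GC content of the genes replicated in no bin. Fully replicated genes and genes replicated in no bin overlap in GC content. Bins held 38.5% G and C on average in Rims1, which was fully replicated, and 38.9% in Cntnap5a, which was replicated in no bin.

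A promoter of each of the same genes is shown beside its bin. RefSeq promoter windows, which cover 250 bases before to 50 after a gene's start, are printed 5′ to 3′ on the gene's strand with every CG dinucleotide in capitals.
Kalrn promoter, chr16:34513978-34514277: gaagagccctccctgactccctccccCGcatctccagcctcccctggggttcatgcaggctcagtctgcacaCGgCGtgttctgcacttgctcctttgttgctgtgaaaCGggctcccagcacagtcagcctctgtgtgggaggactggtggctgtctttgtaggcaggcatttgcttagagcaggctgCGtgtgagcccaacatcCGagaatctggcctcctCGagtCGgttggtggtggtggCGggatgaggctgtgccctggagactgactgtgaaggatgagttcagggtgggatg
Zfhx3 promoter, chr8:108714394-108714693: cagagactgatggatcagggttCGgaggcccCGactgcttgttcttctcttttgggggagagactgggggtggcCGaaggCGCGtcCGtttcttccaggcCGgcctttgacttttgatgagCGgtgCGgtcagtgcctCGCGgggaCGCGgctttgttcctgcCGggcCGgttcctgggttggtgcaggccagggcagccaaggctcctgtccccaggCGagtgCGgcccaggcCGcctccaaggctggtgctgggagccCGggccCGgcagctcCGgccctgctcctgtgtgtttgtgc
Erbb4 promoter, chr1:69108010-69108309: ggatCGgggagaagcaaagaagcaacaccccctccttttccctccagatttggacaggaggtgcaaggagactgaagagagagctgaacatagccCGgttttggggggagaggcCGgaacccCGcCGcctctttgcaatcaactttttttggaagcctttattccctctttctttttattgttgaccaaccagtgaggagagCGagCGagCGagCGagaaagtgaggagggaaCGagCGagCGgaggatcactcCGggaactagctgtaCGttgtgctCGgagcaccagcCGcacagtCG
Cadm2 promoter, chr16:67620859-67621158: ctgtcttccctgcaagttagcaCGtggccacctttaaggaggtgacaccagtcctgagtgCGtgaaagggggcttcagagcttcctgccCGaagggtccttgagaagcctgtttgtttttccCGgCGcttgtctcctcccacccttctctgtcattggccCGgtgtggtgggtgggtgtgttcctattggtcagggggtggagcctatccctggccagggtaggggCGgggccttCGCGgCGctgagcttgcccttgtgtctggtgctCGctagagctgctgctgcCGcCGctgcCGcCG
The Kalrn window held 9 CG dinucleotides, that of Zfhx3 held 21, that of Erbb4 held 17 and that of Cadm2 held 15. The start behind the window lies at the GENCODE gene start for Erbb4 and Cadm2, but 59.5 kb inside the GENCODE gene for Kalrn and 772 kb inside it for Zfhx3. The promoter table gives 1 window for each of these genes, and for Kalrn and Zfhx3 it is not the promoter of the longest transcript, so the 4 windows are not compared. Windows were found for 141 of the 188 genes. At least 10 CG dinucleotides stood in 69.0% of the 58 windows of genes with a mean replicated share over 90% and in 64.7% of the 17 windows of genes under 10%, beside 43.5% of all 32851 promoter windows. The letters CG on 1 strand are CG on the other as well, so both strands are covered.

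The first question was whether bins inside very long genes were as far through replication as the rest of the genome of the same cell. In all 6 S-phase cells a smaller share of them was replicated. Of the long-gene bins with a state, 63.4% were replicated in cell 2, 61.8% in cell 3, 66.0% in cell 5, 49.6% in cell 6, 68.7% in cell 7 and 66.9% in cell 8. All other bins of the same cells stood at 78.9%, 75.2%, 77.8%, 63.4%, 81.4% and 79.6% in the same order. Long-gene minus other bins came to -13.3 percentage points ± 1.29 (SD, n = 6 cells) and lay between -15.6 in cell 2 and -11.8 in cell 5. Cell 6 was the least replicated cell in both sets, yet its difference of -13.7 lay within the range of the other cells. The mean was -14.49 in the 2 scRR3 cells and -12.74 in the 4 scRR1 cells. Expressed as what was left to copy, the unreplicated share was 1.58 ± 0.13 times (SD, n = 6 cells) that of the other bins. Exact binomial 95% intervals for single cells were narrow, for example 61.8% to 64.9% in cell 2. They cover counting error only, since neighbouring bins take their states together.

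Missing data and the gene models bear on these shares. Cell 6 had no data in 188 of the 3791 long-gene bins (4.96%) and in 2.23% of other bins, whereas no other cell lacked more than 9 long-gene bins. In the other 5 cells those 188 bins were replicated in 32.4% of cases, beside 67.1% for the long-gene bins that cell 6 kept, and the part of the missing bins in the share of cell 6 was not tested. In bins with a state in all 6 cells the mean difference was -12.7 percentage points. Among the gene models, the model Gm20388 on chromosome 8 is 4435 kb long and holds 71 other protein-coding genes, Fgfr2 as annotated spans 2961 kb with 29 others although RefSeq gives it 104 kb, and 6 of the 188 models hold at least 5 others. Without these 6 the gap to the other bins averaged -15.6 points, with an SD of 1.45 between cells.

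Embryo 1 gave a background of replicated calls only, as its cells were classed as outside S phase. Their long-gene bins were called replicated in 4.83% of cases in cell 1 and in 1.06% in cell 6, and in none of 3791 in cell 7, which allows a share of up to 0.0791%. Other bins stood at 3.44%, 0.917% and 0.00415%, so the long-gene share was the higher in cells 1 and 6. In cell 1, 145 of the 183 long-gene bins called replicated were on chromosome 7, and without that chromosome the shares were 1.08% and 0.802%.

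The share was lower the longer the gene that holds the bin. Bins within genes under 100 kb were replicated in 91.9% ± 6.58 (mean ± SD over the 6 cells), within genes of 100 to 200 kb in 89.6% ± 7.93 and within genes of 200 to 500 kb in 84.0% ± 7.01. Bins within genes of 500 to 1000 kb stood at 67.6% ± 8.16 and those within genes of 1000 kb or more at 56.0% ± 5.49. The order of these 5 classes held in the means, and in every cell both long classes lay below the 3 shorter ones. Bins that overlap no protein-coding gene were replicated in 61.5% ± 6.39. Against bins within shorter genes the long-gene bins were lower by a mean difference of -24.6 percentage points ± 1.51 (SD, lower in 6 of 6 cells), whereas against bins without a protein-coding gene the difference was 1.28 ± 1.64, smaller than its spread and negative in 1 cell. At the edge of the rule, bins in genes of 450 to 500 kb had a mean share of 80.9% (486 bins) and those in genes of 500 to 550 kb of 73.7% (287 bins).

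**Figure D1:**
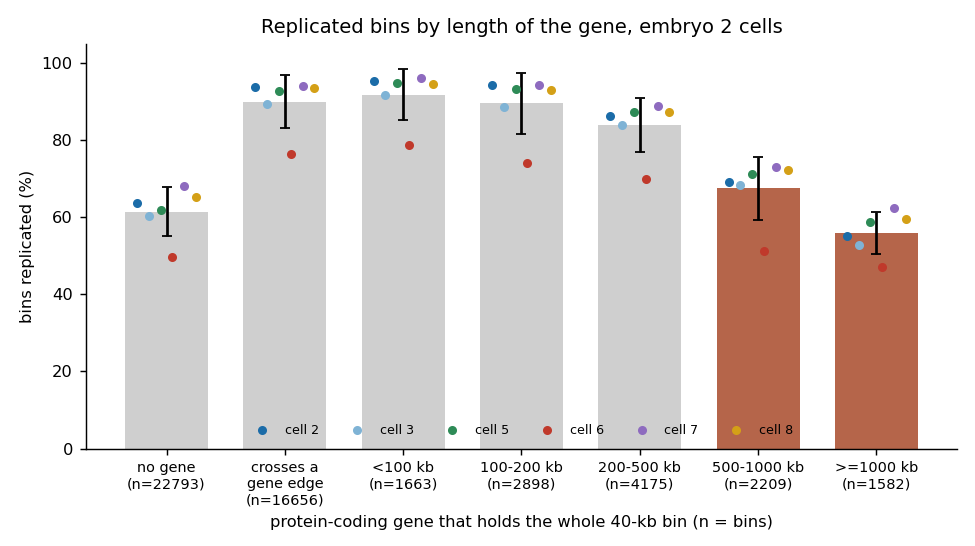
Percent of 40-kb bins replicated (y axis) by the length of the protein-coding gene that holds the whole bin (x axis), with bins in no gene and bins that cross a gene edge at the left. Bars are means over the 6 embryo 2 cells, error bars are SDs between cells and points are single cells. Means run from 91.9% under 100 kb to 56.0% at 1000 kb and over, near the 61.5% of bins without a gene.

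Base composition went with these shares. Long-gene bins held 40.6% G and C on average, beside 42.6% in bins within shorter genes and 40.3% in bins without a protein-coding gene. Repeats masked in the reference covered 28.1% of the long-gene bins, close to the 27.5% within shorter genes and below the 37.7% of gene-free bins. Long-gene bins replicated in all 6 cells held 43.6% G and C and those replicated in none held 37.7%. Within long-gene bins, the share replicated was 24.6% ± 3.73 (SD, n = 6 cells) under 36% GC, 55.2% ± 7.46 at 38 to 40% GC and 96.6% ± 3.21 at 46% GC and over. When the other bins were weighted to the GC classes of the long-gene bins, the gap averaged -5.85 percentage points ± 1.33 (SD, lower in 6 of 6 cells), less than the unweighted -13.3. The gap was widest in the middle classes, at -11.1 ± 2.10 for 40 to 42% GC and -12.1 ± 4.23 for 42 to 44% GC. It was 0.418 ± 4.38 at 36 to 38% GC and 1.34 ± 4.16 at 46% GC and over, both within the spread between cells. Against bins within shorter genes weighted in the same way, the difference remained at -19.1 ± 1.06 (SD, lower in 6 of 6 cells), and against gene-free bins it was 0.116 ± 1.53.

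**Figure D2:**
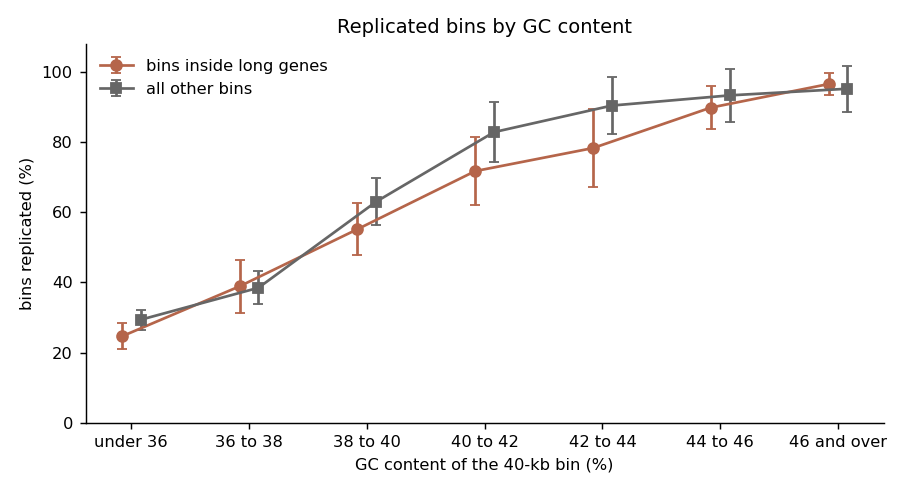
Percent of bins replicated (y axis) in classes of GC content (x axis) for bins inside long genes and all other bins, as means over the 6 embryo 2 cells with SDs between cells as error bars. Both sets are more replicated at higher GC content, and the long-gene bins lie lowest against the others between 40 and 44% GC.

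More long-gene bins than other bins had both states among the 6 cells. Among the 3588 that have a state in every S-phase cell, 30.3% had been copied in each of the 6, where the value over all bins of the table was 48.7%. Another 12.8% of the long-gene bins (461) were replicated in none, beside 8.03% over all bins and 7.66% of the bins outside long genes. The remaining 56.9% had both states among the 6 cells, compared with 42.2% of the other bins. Bins unreplicated in cell 6 but replicated in the other 5 made up 12.1% of the long-gene bins and 13.6% of the others. Over the 15 pairs of cells, 74.97% of long-gene bins had the same state on average, beside 53.1% for independent profiles with the same shares. Outside long genes, these values were 82.4% and 63.5%. Agreement thus exceeded the independent value by at least as much inside long genes as outside. The share with both states and the agreement depend on the replicated share, which was lower in long-gene bins. Neither therefore shows by itself that long-gene bins differed more from cell to cell.

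Across the gene body, the last part of the genes was ahead of the middle. The first part was ahead when all bins were pooled. With genes weighted equally, or divided into 3 equal parts, its lead was within the spread between cells. The first 200 kb of the genes were replicated in 65.5% ± 7.25 (SD, n = 6 cells) of bins, the interior in 59.3% ± 5.99 and the last 200 kb in 68.7% ± 9.10. Interior minus first 200 kb was -6.20 percentage points ± 2.02 and interior minus last 200 kb was -9.39 ± 3.28, and both were negative in each of the 6 cells. The interior holds more bins of the longest genes, since 54.9% of its bins but 24.8% of those in the first and in the last 200 kb lie in genes of 1000 kb or more. With every gene weighted equally, interior minus first 200 kb was -1.29 ± 2.21, within its spread and positive in cell 2, and interior minus last 200 kb was -4.97 ± 1.76, negative in 6 of 6 cells. When each gene was divided into 3 parts of equal length, the first, middle and last parts were at 61.5%, 60.8% and 66.1%. Middle minus first part was -0.67 ± 2.05 and below 0 in 4 of 6 cells, and middle minus last part was -5.26 ± 2.66 and below 0 in 6 of 6. The first and the last 200 kb differed by a mean of -3.19 ± 3.10, with 1 cell (cell 6) above 0. Bins up to 200 kb before the start were replicated in 68.7% ± 6.23, and bins up to 200 kb after the end in 72.1% ± 8.76. Against all bins within 400 kb of the genes the long-gene bins were lower by a mean difference of -8.59 percentage points ± 0.542 (SD, lower in 6 of 6 cells). GC content was 40.4% in the first 200 kb, 40.4% in the interior and 41.1% in the last 200 kb, and its part in the position values was not tested. Without the 6 models that hold many genes, interior minus first 200 kb was -9.68.

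**Figure D3:**
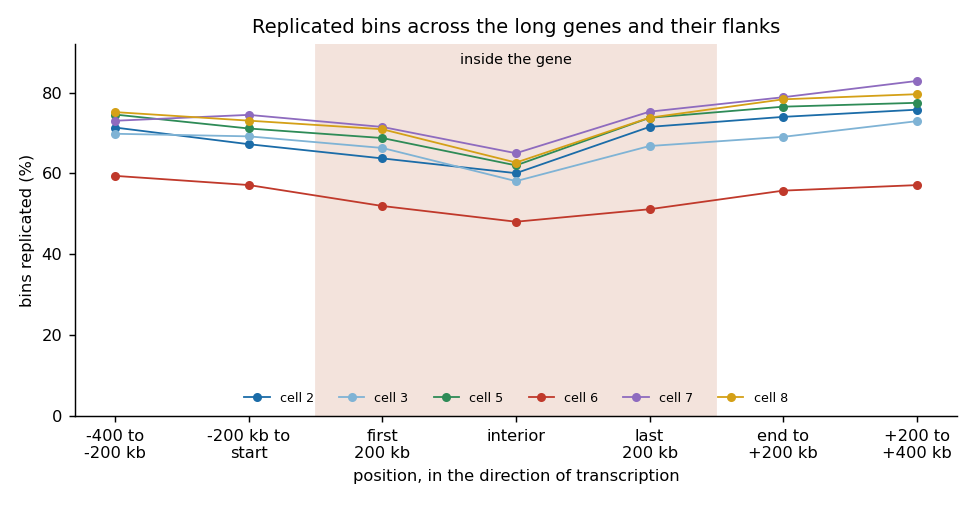
Percent of bins replicated (y axis) in windows from 400 kb before to 400 kb after the long genes, in the direction of transcription (x axis), with 1 line per embryo 2 cell and the gene body shaded. Each cell has its lowest value in the interior, from 48.1% in cell 6 to 65.0% in cell 7, and the interior holds more bins of the longest genes than the end windows do.

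Single genes showed where along their length replication stood. Neighbouring bins inside a long gene had different states in 2.72% ± 0.317 (SD, n = 6 cells) of pairs, and in 1.92% ± 0.694 outside. The difference of 0.803 percentage points ± 0.548 was positive in 5 cells and was -0.241 in cell 6, whose states changed in 3.33% of pairs outside long genes. How often states change also depends on the replicated share, which was lower inside long genes, and this was not adjusted for. In a given cell, between 111 and 131 of the 188 genes had no change of state along their bins. Over the 6 cells, 145 genes were partly replicated in at least 1 cell, and 7 genes, among them Macrod2, Dlg2 and Ctnnd2, were partly replicated in every cell.

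Dlg2 (ENSMUSG00000052572.17, chr7:90476672-92449247), a scaffold protein of the postsynaptic density, had replicated ends around an unreplicated centre in 5 cells. Its unreplicated run began 243 to 363 kb from the gene start and ended 1123 to 1243 kb from it in cells 2, 3, 5, 7 and 8. Cell 6 had no data from 563 to 1203 kb and was unreplicated on both sides of this gap. Macrod2 (ENSMUSG00000068205.14, chr2:140395309-142392966), a mono-ADP-ribosyl hydrolase, was replicated over its first 365 to 765 kb in those same 5 cells and mostly unreplicated beyond, while in cell 6 it was unreplicated up to 525 kb and had no data from there to 1165 kb. Between 9.09% in cell 6 and 42.9% in cell 5 of its bins were replicated.

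Another order was seen in Ptprd and Lsamp. Ptprd (ENSMUSG00000028399.18, chr4:75941238-78211961), a receptor protein tyrosine phosphatase of synapses, had no replicated bin in cells 2 and 8. In cell 3 it was replicated from 212 to 1812 kb and in cell 5 from 692 to 1572 kb, with unreplicated bins at both ends. In cell 6 its only replicated run was 80 kb long and began 492 kb from the start, outside the run of cell 5. Cell 7 had 3 separate replicated runs, so the replicated place within Ptprd differed between cells. Lsamp (ENSMUSG00000061080.11, chr16:39984361-42181679), a limbic adhesion protein, was unreplicated up to 896 kb from its start in cells 5 and 8 and up to 1016 to 1216 kb in cells 2, 3 and 7. All 5 of these cells had a replicated run beyond that point, and cell 6, which had no data from 176 to 896 kb, had none. Lrp1b (ENSMUSG00000049252.17, chr2:40595246-42653624), a large lipoprotein receptor, ranged from 0% of bins replicated in cell 3 to 68.0% in cell 7. Csmd1 (ENSMUSG00000060924.15, chr8:15892537-17535586), a complement control membrane protein, ranged from 12.5% in cell 6 to 100% in cell 2.

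**Figure D4:**
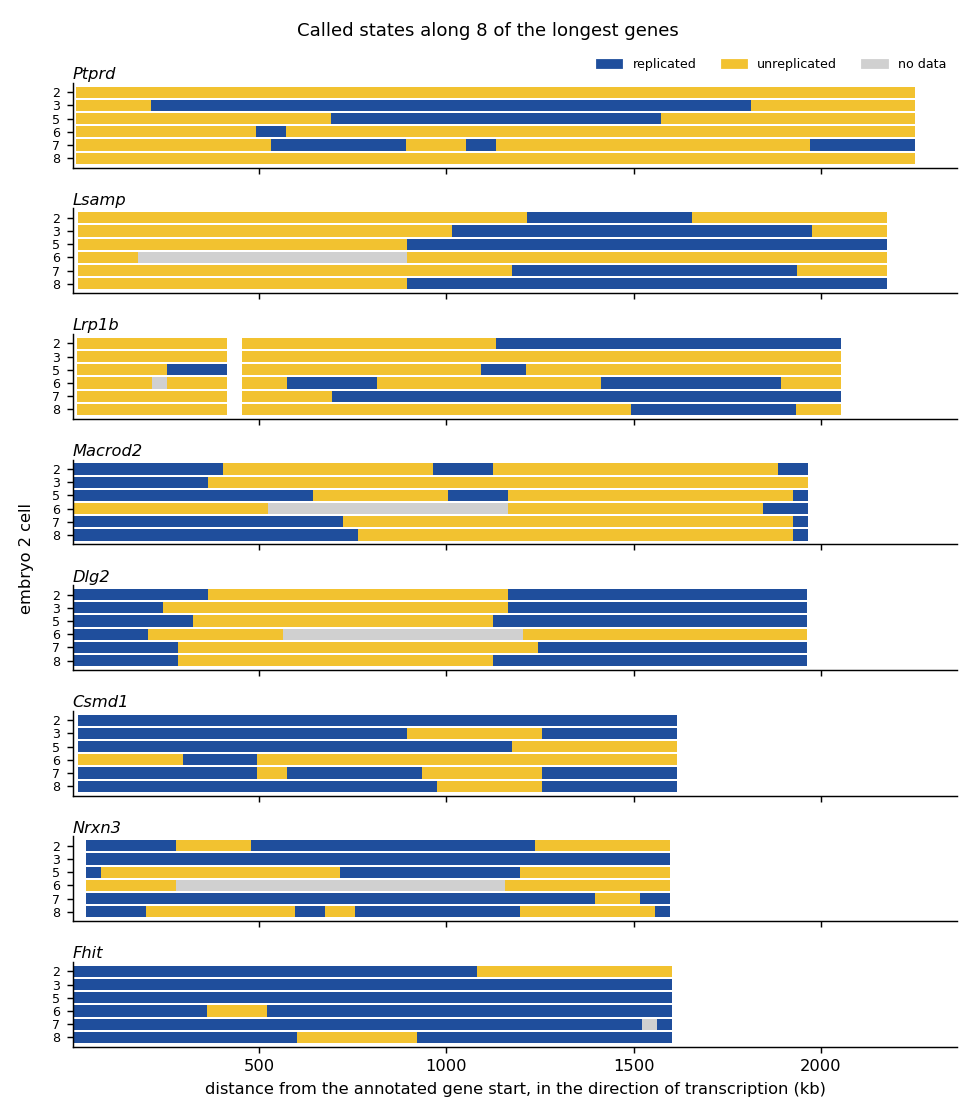
Called state of each bin along 8 of the longest genes with fewer than 5 other genes inside, with the distance from the gene start in kb on the x axis and 1 row per embryo 2 cell. Blue is replicated, yellow unreplicated and grey no data; Dlg2 is unreplicated in the centre, Macrod2 is replicated near its start and Lsamp far from its start.

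Gene by gene, the mean share over the 6 cells had a median of 75.2% and ran from 0% to 100%. Over all cells with a value, 26 genes were replicated in every bin and 8 in none, 54 genes had a mean above 90% and 19 a mean below 10%. Among the genes at 0% were Erbb4, Cadm2, Cntnap5a, Dpyd, Cntnap5b, B3galt1 and Robo2. The Cntnap5 genes encode contactin-associated proteins, Robo2 is an axon guidance receptor, Dpyd degrades pyrimidines and B3galt1 is a galactosyltransferase. Dpyd had no data in cell 6, so its value rests on 5 cells. Of the genes named here, Cadm2 had a mean of 0.0117 TPM and the others were listed at 0 in all 6 cells. The 8 longest of the 26 fully replicated genes were Fgfr2, Cdh13, Zfhx3, Sdk1, Camta1, Wwox, Trpm3 and Grid1. Grid1, a glutamate receptor subunit, and Trpm3, a cation channel, were listed at 0 TPM in all 6 cells, and Wwox, an oxidoreductase at a fragile site, had a mean of 0.0683 TPM, so full replication was also seen in genes with little or no RNA. Between the least and the most replicated cell, the share of a gene moved by a median of 58.5 percentage points, by 50 or more in 104 genes and by 100 in 42. Without cell 6, 81 genes moved by 50 or more.

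In single cells, some genes were low where other bins of their chromosome were low too. Naaladl2 on chromosome 3, a fragile site gene, had 75.8% of its bins replicated in cell 2, 0% in cells 3 and 6, and 100% in cells 5, 7 and 8. The other bins of chromosome 3 stood at 52.6% in cell 3 and 51.4% in cell 6, and at 66.6% to 74.8% in the other 4 cells. Cell 6 was also the least replicated cell over all bins of the table, at 62.4%. On chromosome 11, cell 3 had 16.2% of long-gene bins and 52.3% of other bins replicated, and the other 5 cells lay at 70.0% to 83.1% and 73.4% to 89.8%. Neither chromosome was low throughout in cell 3, where 91.7% of the bins of Car10 (chromosome 11) and 100% of those of Lrba (chromosome 3) were replicated. The part of the chromosome in the values of single genes was not tested. Without chromosomes 3, 7 and 11 the mean difference between long-gene and other bins was -14.6 percentage points, and on 15 of the 17 chromosomes the mean difference was below 0. Chromosomes 5 and 8 were the exceptions, with 0.923 and 0.0487.

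Genes of synaptic and neuronal adhesion stood lowest among the lists. Their 38 members had a median gene share of 41.7% and 43.0% ± 6.73 (SD, n = 6 cells) of their bins were replicated, beside 75.2% and 62.7% ± 6.88 for all 188 genes. Of these 38, 22 had a mean share under 50%, as did 56 of all 188 genes. Over 90% were 5 of the 38, namely Cdh13, Sdk1, Ptprm, Ptprn2 and Ptprg, beside 54 of the 188. Against the other long-gene bins the difference of the list was -26.3 percentage points ± 5.22. It was -15.6 ± 4.98 when the others were weighted to the GC classes of the list, lower in 6 of 6 cells in both. Ion channel and neurotransmitter receptor genes had a median gene share of 86.7% over 13 members, with only Dpp10 (7.84%) and Kcnip4 (47.0%) under 50%. Ryr2 and Ryr3, calcium release channels, had mean shares of 94.9% and 100%. The 13 transcription, splicing and chromatin genes had a median of 77.5%, where only Macrod2, whose enzyme acts on ADP-ribose, was under 50%. Immp2l, a mitochondrial inner membrane peptidase subunit, also stands on that list and had 95.5%. The 22 signalling and scaffold genes had a median of 80.2%, and the 99 genes on no list one of 78.2%. The fragile site list shares members with the other lists.

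Fragile site genes were somewhat lower than the other long genes, and close to them only after weighting to GC classes. Their 21 members had a median share of 64.1%, and 58.6% ± 8.62 (SD, n = 6 cells) of their bins were replicated. Against the other long-gene bins the difference was -5.03 percentage points ± 3.31 (lower in 6 of 6 cells), but -0.976 ± 3.37 after weighting to GC classes, when it was lower in 3 of 6 cells. The list spans the whole range. Erbb4, Dpyd and Gpc6 had mean shares under 10%, and Wwox, Cdh13, Sdk1, Auts2 and Immp2l over 90%. Fhit (chr14:9550092-11162035), a diadenosine triphosphatase at a common fragile site, was replicated in 67.5% of its 40 bins in cell 2, 90% in cell 6, 80% in cell 8 and 100% in cells 3, 5 and 7. Pde4d, a cAMP phosphodiesterase, had 0% in cell 2, 19.4% in cell 3, 80.6% in cell 5, 38.9% in cell 6, 27.8% in cell 7 and 50% in cell 8. Other members lay between these extremes, with mean shares of 30.4% for Macrod2, 31.1% for Lrp1b, 36.4% for Lsamp, 49.1% for Dlg2, 62.3% for Magi2, 62.6% for Naaladl2, 64.1% for Nbea, 70.0% for Csmd1, 77.5% for Rbfox1 and 77.6% for Dab1.

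The next question was how replication went with the RNA of the gene. All 188 genes were found in the RNA table, which holds TPM, the share of a cell's transcripts scaled to a fixed total. Mean TPM over the 6 cells was above 1 in 33 genes (17.6%), beside 47% of all protein-coding genes. Listed at 0 in every cell were 69 of the 188 genes. Of all 230 protein-coding genes of at least 500 kb, with or without bins, 37.4% were listed at 0 in every cell. This is near the 33.5% over all protein-coding genes. The 756 bins of long genes with a mean TPM over 1 were replicated in 85.03% ± 8.27 (SD, n = 6 cells) and the 3035 bins of the other long genes in 57.2% ± 6.64. The difference was 27.9 percentage points ± 2.69 and by cell lay between 23.9 percentage points in cell 6 and 30.7 in cell 2. Without the models that hold 5 or more other genes, it averaged 23.7 points. Bins were at 49.4% ± 6.66 in genes listed at 0 in all cells, 61.5% ± 9.01 above 0 and up to 0.1 TPM, 66.0% ± 6.39 up to 1 TPM, 78.2% ± 8.11 up to 5 TPM and 94.7% ± 9.33 above 5 TPM. Across the 188 genes, Spearman's rank correlation was 0.387 between mean TPM and mean share, 0.633 between GC content and mean share and 0.321 between GC content and mean TPM. These are descriptions across genes that share the same 6 cells. Weighting the other long genes to the GC classes of the expressed ones reduced the difference to 12.9 percentage points ± 2.66 (SD, higher in 6 of 6 cells).

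Among the genes with the highest mean TPM were Fgfr2 (31.4 TPM), Etl4 (22.3), Pard3 (20.6), Kalrn (12.1), Camta1 (8.84), Smyd3 (8.37) and Lpp (8.03). Etl4 (chr2:19909780-20810713) had 28.24, 23.15, 24.79, 19.75, 27.11 and 10.76 TPM in cells 2, 3, 5, 6, 7 and 8, and every bin was replicated except in cell 6, at 63.6%. Pard3 (chr8:127063893-127612286), a cell polarity protein, had 29.51, 20.47, 8.43, 28.15, 28.41 and 8.58 TPM in the same order, and was also partly replicated only in cell 6, at 53.8%. Smyd3 (chr1:178951960-179518041), a lysine methyltransferase, had 8.35, 8.91, 5.66, 9.10, 7.68 and 10.51 TPM, and 7.69% of its bins were replicated in cell 6 against 100% in the other 5 cells. Kalrn (chr16:33969073-34573532) was fully replicated throughout while its TPM ran from 2.93 in cell 7 to 21.25 in cell 3. Lpp, a focal adhesion protein, and Camta1, a transcription activator, were fully replicated as well, with 3.38 to 26.13 and 0.61 to 16.59 TPM.

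Few expressed long genes were mostly unreplicated. Of the 33 genes with a mean TPM over 1, 3 had a mean share under 50%, beside 56 of all 188 long genes. These 3 were Hdac9, Dcc and Adgrl3, which were picked here after their values were seen. Dcc, a netrin receptor, had 0.641% of its bins replicated with a mean of 1.17 TPM, above 1 TPM in 1 cell. Adgrl3, an adhesion G protein-coupled receptor, had 24.6% and 1.33 TPM, and Hdac9, a histone deacetylase, 49.2% and 1.27 TPM.

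**Figure D5:**
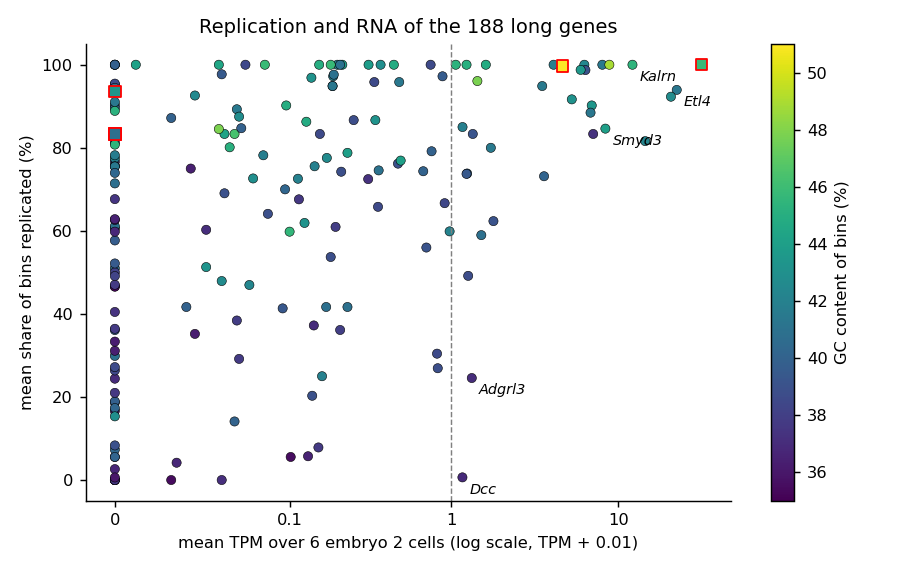
Mean share of bins replicated in the 6 embryo 2 cells (y axis, %) against mean TPM (x axis, log scale) for the 188 long genes, coloured by the GC content of their bins. Red-edged squares are models that hold 5 or more other genes, and the dashed line is at 1 TPM; genes at 0 TPM span 0% to 100%, and genes to the right of the line lie mostly above 50%.

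Length and RNA were then combined, giving each bin the highest mean TPM of any protein-coding gene that holds it whole, which puts 761 long-gene bins above 1 TPM. Among bins in genes with a mean TPM over 1, those in long genes were lower than those in shorter genes by a mean difference of -8.95 percentage points ± 2.04 (SD, lower in 6 of 6 cells), at 85.02% against 94.0%. Among bins in genes with a mean TPM of 1 or less, the difference was -24.1 ± 1.97, at 57.1% against 81.3%. With shorter genes weighted to the GC classes of the long ones, these differences were -9.07 ± 2.01 and -13.2 ± 1.14. The gap between expressed and other genes was wider in genes of 200 kb or more than in shorter ones. It was 8.50 percentage points ± 1.35 (SD, n = 6 cells) in genes under 100 kb and 8.88 ± 1.65 in genes of 100 to 200 kb. In genes of 200 to 500 kb it was 15.5 ± 1.61, in genes of 500 to 1000 kb 21.02 ± 3.19 and in genes of 1000 kb or more 37.9 ± 3.05. The last value rested in part on models that hold 5 or more other genes. Without them it was 23.4 ± 8.73, which differs from the 500 to 1000 kb class by less than this spread. Bins of the 1000-kb class held 45.0% G and C where the gene was expressed and 39.1% where it was not, and the part of this in the gap was not tested.

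A gene was also compared with itself across cells. Of the 188 genes, 51 were mostly replicated in at least 2 cells and mostly unreplicated in at least 2, but only 6 of them had a mean TPM over 1. Of these 6, 3 were higher and 3 lower in the cells with the gene mostly replicated. With 0.1 rather than 1 added to the TPM, 2 of 6 were higher, and with 10 added 3 of 6. With 1 cell left out, the split ran from 0 of 4 higher (without cell 7) to 2 of 3 (without cell 6). The mean difference on the log2(TPM + 1) scale was -0.31. Its SD of 1.22 is between 6 unlike genes measured in the same cells and does not describe replicates. Leaving out 1 cell at a time moved this mean between -1.08 and 0.44, and it was above 0 without cell 2 and without cell 6. Celf2 (an RNA-binding splicing factor) had 1.9, 0.35, 4.96 and 0.32 TPM in cells 2, 5, 7 and 8, where it was mostly replicated. It had 5.30 and 8.78 TPM in cells 3 and 6, where it was mostly unreplicated. Nrg1 (a growth factor ligand of ERBB receptors) had 0.72, 0, 1.25 and 5.45 TPM in cells 2, 5, 6 and 7, where it was mostly replicated. It was listed at 0 in cells 3 and 8, where it was mostly unreplicated. The states can be close, as 57.7% of the bins of Nrg1 were replicated in cell 6 and 46.2% in cell 8. Values this low in single cells are often 0, and no relation between the state of a long gene and its RNA was detectable with 6 genes.

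The RNA of an expressed long gene often came from transcripts that do not run through it. For 32 of the 33 expressed genes, transcripts could be matched between the annotation and the transcript table. The median percent of TPM in transcripts that span at least 50% of the gene was 22.1%. It was under 50% in 24 genes and over 90% in 5, among them Dcc, Erc2, Enox1 and Gm20388. For Gm20388 only 1 transcript was matched, which spans the whole model, so its 100% was fixed in advance. For Kalrn, the transcript with the highest TPM spanned 82.9 kb of 604 kb and held 65.1% of the TPM of the gene. In Etl4 4.18% of the TPM, and in Camta1 3.17%, came from transcripts of at least 50% of the gene. For 13 genes the leading transcript spanned less than 100 kb. By cell, the median was 12.97% and 34.59% in the scRR3 cells 2 and 3, and between 22.98% (cell 8) and 40.29% (cell 7) in the 4 scRR1 cells, so the ranges overlap. The part of the 3′ bias in these values was not tested. The split of reads between transcripts of 1 gene is an estimate, and annotated fragments can take a share of it.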

How the data were processed

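Blastomeres of 8-cell mouse embryos were picked by hand and processed by scRR-seq. Labels name 26 libraries from 13 cells of 2 embryos, and the tables hold 9 of these cells. Per the study's methods, the authors aligned DNA reads to mm10 with BWA 0.7.17-r1188, corrected mappability with G1-like and G2/M-like embryo cells and called 2 states in 40-kb bins with AneuFinder. The deposited score per bin is 1 (replicated), -1 (unreplicated) or 0 (no data) over 17 chromosomes. RNA values are TPM that the authors deposited for 55487 genes and 142699 transcripts, made with ramdaq, Hisat and RSEM on GENCODE vM25. In each table, 14 columns that match no label were not used.

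Bins were placed in genes with GENCODE vM21, and RNA was joined by gene and by the closing number of the column names. The headers of all 9 RNA columns name the same embryo and cell, at odds with the sample titles, so every RNA value by cell rests on that number. Percentages were taken over bins with a state, per cell, and then as mean ± SD over the 6 S-phase cells. GC weighting gave the comparison bins the GC classes of the bins described. No test was made, because the 6 cells come from 1 embryo. Exact binomial (Clopper-Pearson) 95% intervals and limits for 0, set at 3 counts, cover counting error only, and the read depth behind a state or TPM is unknown from these tables. Differences in a gene's RNA are on the log2(TPM + 1) scale. Sequences are from RefSeq promoter tables and the genome of build GRCm38.p6. Scripts were tested on simulated data and run in Python 3.11.15, numpy 2.4.6, pandas 2.3.3, scipy 1.17.1 and matplotlib 3.10.9.

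Genes named are the 8 longest, the 8 with the highest mean TPM, the 8 with the lowest and the 8 with the highest mean share, and the fragile site list. Members, lists and this rule were chosen with earlier results of these data known. Other genes named, by list extremes or as examples, were chosen after their values were seen. Alternatives covered the length minimum, the comparison bins, the TPM threshold, the gene models and leaving out each cell. Some genes that the rule names are not reported here.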

Additional observations from a re-analysis of the deposited data

Results flagged for a closer look

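Cell 6 of embryo 2 stood apart from the other 5 S-phase cells in 10 of 19 measures examined, by the gap to its nearest neighbour over the range of the 6 cells. Chance flags about 1 in 20 groups, which is 0.95 of 19, and the measures share the same cells. In cell 6, 49.63% of long-gene bins and 63.36% of other bins were replicated. State changed between neighbouring bins outside long genes in 3.325% of pairs, and the difference between long genes and elsewhere was -0.2414 percentage points. Bins of expressed long genes were replicated in 68.67%, bins that cross a gene edge in 76.51%, and bins in genes under 100 kb, of 100 to 200 kb, of 200 to 500 kb and of 500 to 1000 kb in 78.8%, 74.01%, 70.06% and 51.34%. The difference between long-gene and other bins was not among the measures that stood apart.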

How the results depend on the processing

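No paired analysis was possible because no result comes from a test that a block could enter, and differences were taken within each cell. The difference between long-gene and other bins (-13.32 percentage points) was -6.12 with a gene minimum of 300 kb, -19.72 with 1000 kb, -10.82 with genes weighted equally, -24.62 against bins within shorter genes and -5.851 against bins weighted to GC classes. Against bins without a protein-coding gene it turned positive, at 1.277. In alternatives chosen after seeing the data it was -15.64 without models that hold 5 or more other genes, -15.84 with genes long in RefSeq too, -19.1 against shorter genes weighted to GC classes, 0.1163 against gene-free bins weighted likewise and -8.593 against bins within 400 kb. Leaving out 1 cell gave -13.64 to -12.88. The excess of bins replicated in no cell (5.186 points) was 1.702 at 300 kb and 7.783 at 1000 kb. The difference by RNA (27.86 points) was 22.76 at a threshold of 0.5 TPM, 34.84 at 5 TPM, 34.31 for genes over 1 TPM in all 6 cells, 35.6 by median TPM and 22.04 with genes weighted equally. Chosen later, it was 23.72 without the many-gene models and 12.89 with GC weighting. The share of TPM in long transcripts (22.12%) was 39.32% when transcripts over a smaller part of the gene (at least 25% of its length) counted, and the interior minus the first 200 kb (-6.203) was, in alternatives chosen after seeing the data, -9.682 without the many-gene models, -1.287 with genes weighted equally and -0.6701 between the middle and first of 3 equal parts of each gene. The difference in RNA by a gene's own state (-0.3051, log2) lay between -1.083 and 0.4352 when 1 cell was left out and was 0.04852 without cell 2. The causes were not tested.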
